A study of Mus musculus with 18 samples.

Results

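The cyclins, cyclin-dependent kinases and kinase inhibitors that govern the G1 phase of the cell cycle were followed in mouse haematopoietic stem cells (HSCs). The cells were wild-type or deficient in the m6A methyltransferase Mettl3. The set holds 10 genes, chosen by name out of the 23038 genes measured. They are the D-type cyclins Ccnd1, Ccnd2 and Ccnd3, the E-type cyclin Ccne1, the kinases Cdk2, Cdk4 and Cdk6, and the inhibitors Cdkn1b, Cdkn1c and Cdkn2c. All 10 were found in the data of both genotypes.

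A cell leaves G1 when D-type cyclins bound to Cdk4 or Cdk6, and then cyclin E bound to Cdk2, phosphorylate the retinoblastoma protein and so release E2F transcription factors. Inhibitors of the Cip/Kip family (p27 from Cdkn1b, p57 from Cdkn1c) and of the Ink4 family (p18 from Cdkn2c) hold these kinases back. Most adult HSCs rest outside the cell cycle, and p57 and p27 are known for keeping them there. N6-methyladenosine (m6A) is a methyl mark on adenosines of messenger RNA, written by a complex whose catalytic subunit is Mettl3 and known for shortening the life of many transcripts.

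The samples were 18 libraries from C57BL/6 mice, 3 in each of 6 groups, called biological replicates in the design text. One genotype was wild-type. The other, called Mettl3-deficient here, carried Mx1-cre and floxed Mettl3 (Mettl3fl/fl). Mx1-cre acts in interferon-responsive cells, not in blood cells alone. Mice of both genotypes received 5 doses of 10 µg pIpC, the interferon inducer that switches Mx1-cre on, and cells were taken 10 days after the last dose. No age of the mice is given in the sources used. Bone marrow cells with the HSC surface phenotype (Lineage-, Sca1+, cKit+, CD150+, CD48-) were sorted, 3000 per sample. Their messenger RNA was kept as input or split with an antibody to m6A into an unbound and an m6A-tagged fraction. Values are RPKM, the reads of a gene divided by its length in kilobases and by the M reads of the library (M, 1e+06).

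Each group has 1 RPKM column, the authors' mean of its 3 libraries, so the spread between replicates is unknown and no difference below could be tested. For none of the 10 genes could the reads of the separate libraries be worked out. Among the low genes of the neighbouring pathways for which this could be done, named here for that reason and after their values were seen, the transforming growth factor receptor gene Tgfbr1 had 7.39, 1.68 and 20.0 reads per M in the 3 wild-type input libraries. The transcription factor gene Foxo1 had 4.56, 19.1 and 6.16 reads per M in the Mettl3-deficient input libraries. Libraries of a group therefore differed several-fold for these low genes. An RPKM value is a share of its column, so fractions are compared in relative terms. In bulk RNA, fewer cells of a type and less RNA per cell cannot be told apart.

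Depth was 24.3 to 37.22 M reads per wild-type library and 9.42 to 33.59 M per Mettl3-deficient library, the shallowest being an input library. Mettl3 stood at 36.4, 33.2 and 36.1 RPKM in wild-type input, unbound and m6A-tagged RNA and at 19.6, 11.2 and 17.4 RPKM in the Mettl3-deficient fractions, lower in each. Reads from undeleted exons would still count for the gene, and neither their part in these values nor the extent of deletion was tested. All 10 HSC markers checked reached 1 RPKM in at least 1 column, and their sum lay between 779.6 and 1162 RPKM over the 6 columns. The sum hides single markers that differed with genotype in opposite directions. Ly6a, which encodes Sca1, ranged from 117.7 to 195 RPKM over the wild-type columns and from 221.7 to 750.7 RPKM over the others. Kit went the other way, its ranges being 121.6 to 164.7 and 9.52 to 92.4 RPKM in the same order. In input, 5 of the 8 HSC markers averaging 10 RPKM or more were higher in Mettl3-deficient cells. The share among all 6295 genes with such an average was 45.8%. Procr, counted among the 5, hardly differed (67.59 RPKM for wild-type, 68.05 RPKM for Mettl3-deficient input). Of 6 T and NK cell markers 4, among them the T cell gene Cd3e, stayed under 1 RPKM in every column. The T cell gene Cd3d was at 14.4 to 21.5 RPKM in the wild-type and 0.1197 to 1.60 RPKM in the other columns, and Nkg7, a granule gene of NK and T cells, was at 46.2 to 351.8 RPKM over all columns. Markers of granulocytes and monocytes moved with genotype. Their sum over 10 genes was 6191, 9156 and 7064 RPKM in wild-type input, unbound and m6A-tagged RNA, and 1152, 2634 and 1359 RPKM in the Mettl3-deficient fractions. Sums of 6 erythroid markers were 246.2 to 462.3 RPKM in the wild-type columns, against 57.9 to 110.9 RPKM. Sums of 5 megakaryocyte markers were 599.9 to 994.3 and 263.4 to 438.3 RPKM in the same order. None of these 3 ranges of sums overlapped between genotypes. Those of multipotent progenitor (109.3 to 199 RPKM over all columns), B cell (26.6 to 155.7 RPKM) and T and NK cell markers (47.7 to 373.4 RPKM) did. Single markers inside the 3 lists did overlap, among them Gp9, Itga2b and Vwf of the megakaryocyte list. Epor, Klf1 and Hba-a2 of the erythroid list and Prtn3 of the granulocyte and monocyte list did too. Pf4 alone gave 428.1 of the 674.8 RPKM of the megakaryocyte sum in wild-type input. Prtn3 had 503.4 to 773.6 RPKM in the wild-type and 325.7 to 1020 RPKM in the Mettl3-deficient columns. The share of all genes without overlap was not counted.

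The 3 D-type cyclins, which receive growth factor signals, differed in their split between the fractions, Ccnd2 and Ccnd3 lying in opposite order. Ccnd1 (gene 12443, chromosome 7, 144929931 to 144939831, GRCm38) was the lowest of them, with 18.1, 16.0 and 15.8 RPKM in wild-type input, unbound and m6A-tagged RNA and 15.3, 7.70 and 21.1 RPKM in the Mettl3-deficient fractions. Its 6 values lay within 2.74-fold, and the Mettl3-deficient unbound column was the low one. Ccnd2 (gene 12444, chromosome 6, 127125162 to 127152188) had 65.2, 39.75 and 73.1 RPKM in the wild-type fractions and 59.3, 15.8 and 86.1 RPKM in the Mettl3-deficient ones. It was highest in m6A-tagged and lowest in unbound RNA in both genotypes. Ccnd3 (gene 12445, chromosome 17, 47505051 to 47599689) had 74.7, 148.7 and 41.0 RPKM in the wild-type fractions and 84.9, 176.8 and 57.3 RPKM in the Mettl3-deficient ones. The order was reversed, unbound being highest and m6A-tagged lowest in both genotypes.

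The mixture of D-type cyclins therefore differed by fraction. In wild-type input, Ccnd1, Ccnd2 and Ccnd3 made up 11.5%, 41.3% and 47.3% of their summed RPKM, which was 158 RPKM. In unbound RNA Ccnd3 took 72.7% and Ccnd2 19.4%, whereas in m6A-tagged RNA Ccnd2 took 56.3% and Ccnd3 31.6%. In Mettl3-deficient cells Ccnd3 took 53.2% of the input, 88.3% of the unbound and 34.8% of the m6A-tagged sum. Ccnd2 took 37.2%, 7.9% and 52.4% there. The sum itself was 159.5 RPKM in Mettl3-deficient input, close to that of wild-type input. Such shares inside a column do not depend on how columns are scaled to each other.

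Ccne1 (gene 12447, chromosome 7, 38097984 to 38107490), the cyclin that activates Cdk2, had 19.9, 18.7 and 29.7 RPKM in wild-type input, unbound and m6A-tagged RNA and 18.4, 38.1 and 23.0 RPKM in the Mettl3-deficient fractions. The m6A-tagged column was the highest in wild-type cells and the unbound column the highest in Mettl3-deficient cells.

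Among the kinases, Cdk4 was by far the most abundant member. Cdk4 and Cdk6, which share the D-type cyclins as partners, were split in opposite ways between unbound and m6A-tagged RNA. Against input, both were lower in m6A-tagged RNA of wild-type cells. Cdk4 (gene 12567, chromosome 10, 127063535 to 127067288) had 646.1, 1186 and 284.5 RPKM in the wild-type fractions and 768.3, 1778 and 636.1 RPKM in the Mettl3-deficient ones. Each Cdk4 value stood above at least 97.3% of the genes compared, and unbound RNA was highest and m6A-tagged RNA lowest in both genotypes. Cdk6 (gene 12571, chromosome 5, 3341004 to 3531008) had 29.0, 10.8 and 20.8 RPKM in the wild-type fractions and 14.8, 4.77 and 19.8 RPKM in the Mettl3-deficient ones. Its unbound column was the lowest in both genotypes. Cdk2 (gene 12566, chromosome 10, 128697938 to 128705051), the partner of cyclin E, was the most even member. It had 56.4, 72.4 and 43.7 RPKM in the wild-type fractions and 59.0, 66.8 and 56.6 RPKM in the Mettl3-deficient ones, all within 1.66-fold.

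The ratio of Cdk4 to Cdk6 RPKM was 22.2 in wild-type input, 110 in unbound and 13.7 in m6A-tagged RNA. The corresponding ratios of Mettl3-deficient cells were 52.0, 373 and 32.1. Within each fraction the ratio was higher in Mettl3-deficient cells, and within each genotype it was highest in unbound and lowest in m6A-tagged RNA.

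**Figure D1:**
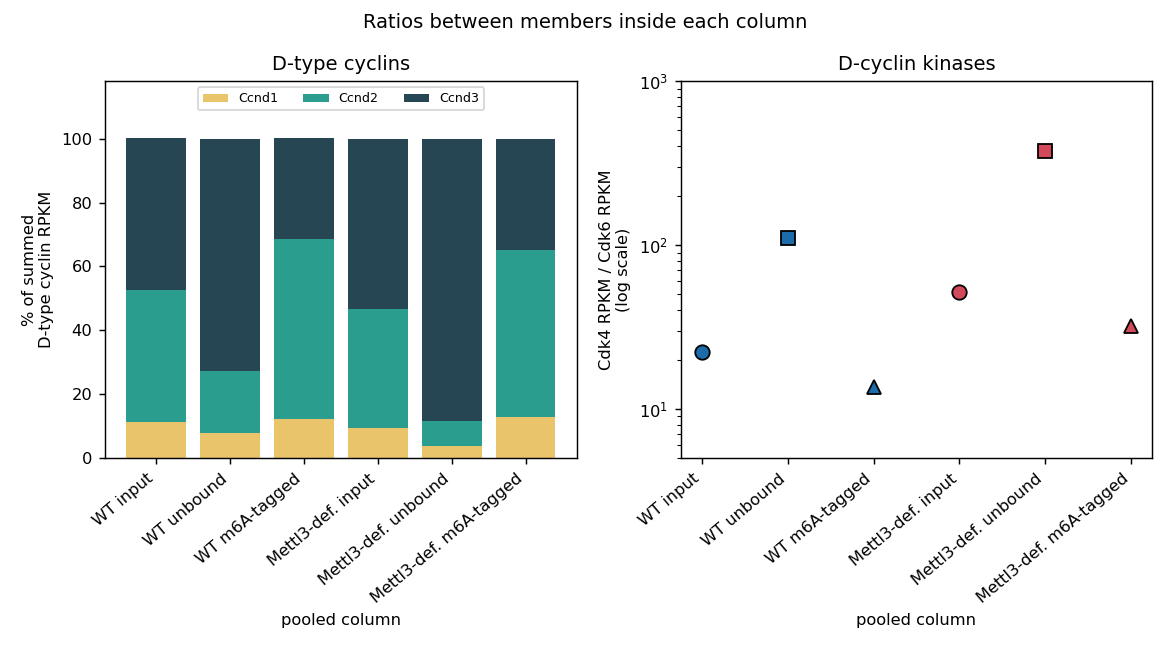
Ratios between genes inside each pooled column, bars or points standing for 1 value per column. The left panel gives the shares of Ccnd1, Ccnd2 and Ccnd3 in their summed RPKM (%), with Ccnd3 at 72.7% and 88.3% in the unbound columns, and the right panel gives the Cdk4 to Cdk6 ratio on a log axis, from 13.7 to 373.

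The promoters of these 2 kinases are shown because the genes pair with the same cyclins. They differed in the copies of a short motif, and a relation of the motif to the fractions was not tested. The letters CACGTG, the E-box recognised by basic helix-loop-helix factors such as Myc, were searched in the 250 bases before each annotated start in the RefSeq table of GRCm38.p6. The motif is its own reverse complement, so 1 search covers both strands. Windows were found for 7 of the 10 genes, 9 in all, and capitals mark the motif. The Cdk4 window is chr10:127063285-127063534 and that of Cdk6 chr5:3343643-3343892, both on the plus strand, the latter inside the annotated span of the gene.

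Cdk4: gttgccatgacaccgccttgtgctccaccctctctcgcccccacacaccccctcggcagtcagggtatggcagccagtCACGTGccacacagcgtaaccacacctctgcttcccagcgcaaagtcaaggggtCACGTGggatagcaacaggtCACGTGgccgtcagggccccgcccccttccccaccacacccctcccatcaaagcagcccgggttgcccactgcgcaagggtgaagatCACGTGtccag
Cdk6: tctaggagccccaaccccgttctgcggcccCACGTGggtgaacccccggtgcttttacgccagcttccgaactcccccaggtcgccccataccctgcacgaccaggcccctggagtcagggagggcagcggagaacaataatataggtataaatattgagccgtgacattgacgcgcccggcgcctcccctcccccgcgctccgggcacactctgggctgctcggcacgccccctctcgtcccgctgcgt

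The Cdk4 window holds 4 copies and the Cdk6 window 1, and the windows of Ccnd3, Ccne1, Cdk2, Cdkn1b and Cdkn2c hold 0. Of 32851 windows of all genes, 6.02% hold at least 1 copy, 0.429% at least 2, and 7 windows (0.0213%) at least 4. A match describes these letters and is not a measured binding site.

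Of the 3 inhibitors in the set, Cdkn1c was the most abundant in every column. Cdkn1c (gene 12577, chromosome 7, 143458339 to 143461059), which encodes p57, had 36.7, 21.1 and 43.9 RPKM in wild-type input, unbound and m6A-tagged RNA and 24.2, 9.54 and 54.4 RPKM in the Mettl3-deficient fractions. It was highest in m6A-tagged and lowest in unbound RNA in both genotypes, the order seen for Ccnd2. Cdkn1b (gene 12576, chromosome 6, 134920401 to 134925525), which encodes p27, was low, with 4.07, 4.22 and 8.76 RPKM in the wild-type fractions and 3.94, 1.54 and 4.60 RPKM in the Mettl3-deficient ones. Cdkn2c (gene 12580, chromosome 4, 109660876 to 109666756), which encodes p18, had 11.2, 4.24 and 17.8 RPKM in the wild-type fractions and 4.15, 6.77 and 7.36 RPKM in the Mettl3-deficient ones. Both were highest in wild-type m6A-tagged RNA. Their means over the 6 columns, 4.52 and 8.59 RPKM, lay under the minimum of 10 RPKM set for counting, so counts below are over the other 8 genes.

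**Figure D2:**
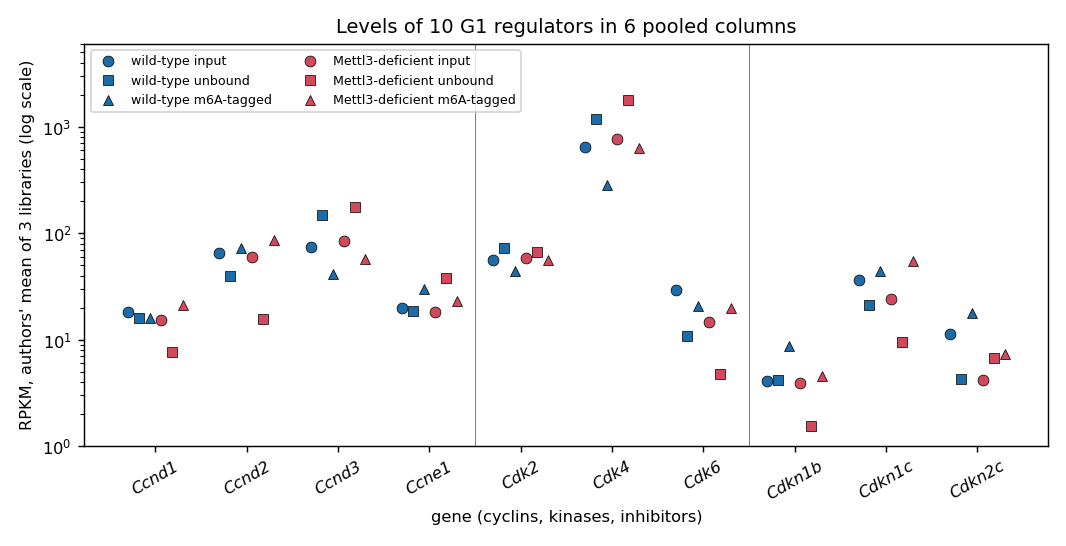
Level of each G1 gene (RPKM, log axis) in the 6 pooled columns. Each point is the authors' mean of 3 libraries, with colour for genotype and shape for fraction. Cdk4 lies between 284.5 and 1778 RPKM, above the other 9 genes in every column, and Cdkn1b, between 1.54 and 8.76 RPKM, is among the lowest.

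Other inhibitors were also measured. Cdkn2d, which encodes the Ink4 protein p19, had 61.5, 67.0 and 88.7 RPKM in the wild-type fractions and 43.8, 147.6 and 60.1 RPKM in the Mettl3-deficient ones, above Cdkn1c and Cdkn2c in each column. Cdkn1a, which encodes p21, a target of p53, had 4.48, 1.90 and 2.99 RPKM in the wild-type and 7.40, 6.81 and 13.8 RPKM in the Mettl3-deficient fractions. It was higher in Mettl3-deficient cells in each fraction, though low. Cdkn2a and Cdkn2b, the remaining Ink4 genes, and the germ cell cyclin gene Ccna1 had 0 reads in all 18 libraries. A floor of 3 reads over a group allows up to 0.0303 reads per M in wild-type input and up to 0.0561 in Mettl3-deficient unbound RNA, the shallowest group. These limits cover counting error only.

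The first comparison asked which transcripts the antibody held relative to input. Ratios are log2 of (RPKM + 1), which understates differences of low genes, and a gene was counted at a 2-fold difference, over the 6295 genes whose 6 columns averaged 10 RPKM or more. In wild-type cells Cdk4 was lower in m6A-tagged than in input RNA, at -1.18 (2.27-fold lower), and was the 1 member of 8 past 2-fold. Over all genes compared 8.91% were past 2-fold in either direction. Ccnd3 followed at -0.85, and Ccne1 was highest of the 8 at 0.55. Cdkn1c (0.25) and Ccnd2 (0.16) lay above 0, and Cdk6 (-0.46), Cdk2 (-0.36) and Ccnd1 (-0.19) below. Cdkn1b lay at 0.94 and Cdkn2c at 0.62, both under the minimum of 10 RPKM. The median of the 8 was -0.27, against 0.06 over all genes.

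In Mettl3-deficient cells Cdkn1c was higher in m6A-tagged than in input RNA, at 1.14 (2.20-fold), again 1 member of 8, against 2.81% of all genes past 2-fold. This ratio stood above 99.3% of the genes compared. Ccnd2 was at 0.53, Ccnd1 at 0.44 and Cdk6 at 0.40, while Ccnd3 was at -0.56 and Cdk4 at -0.27. Ccne1 was at 0.31 and Cdk2 at -0.06, and of the genes under the minimum Cdkn2c was at 0.70 and Cdkn1b at 0.18. The median of the 8 was 0.36, against 0.12 over all genes. The ratio of Cdkn1c to input rests on an input value of 24.2 RPKM, lower than the 36.7 RPKM of wild-type input.

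Against the unbound fraction the members stood further apart, as genes did in general. In wild-type cells Cdk4 (-2.06) and Ccnd3 (-1.83) were lower in m6A-tagged RNA and Cdkn1c (1.02) was higher, 3 of 8 past 2-fold where 50.8% of all genes were. Cdk4 and Ccnd3 lay at percentiles 2.7 and 4.5 of all genes. Cdk6 was at 0.89, Ccnd2 at 0.86, Ccne1 at 0.64 and Cdk2 at -0.72, and Ccnd1, at -0.02, changes sign with the scaling of the columns. Under upper-quartile scaling Ccnd2 and Cdk6 passed 2-fold as well, 5 of the 8 in all, and Cdkn1c did not reach it under median-ratio scaling (0.89). Of the genes under the minimum, Cdkn2c was at 1.84 and Cdkn1b at 0.90.

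In Mettl3-deficient cells the same comparison put 6 of 8 past 2-fold, where 50.6% of all genes were. Cdkn1c (2.39), Ccnd2 (2.38), Cdk6 (1.85) and Ccnd1 (1.35) were higher in m6A-tagged RNA, and Ccnd3 (-1.61) and Cdk4 (-1.48) lower. Cdk2 was at -0.23. Cdkn1b, under the minimum, was at 1.14, and Cdkn2c, at 0.10, changes sign with the scaling. In both genotypes Cdkn1c, Ccnd2 and Cdk6 thus lay above 0 and Ccnd3, Cdk4 and Cdk2 below 0. Ccne1 lay above 0 in wild-type cells but at -0.70 in Mettl3-deficient ones.

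**Figure D3:**
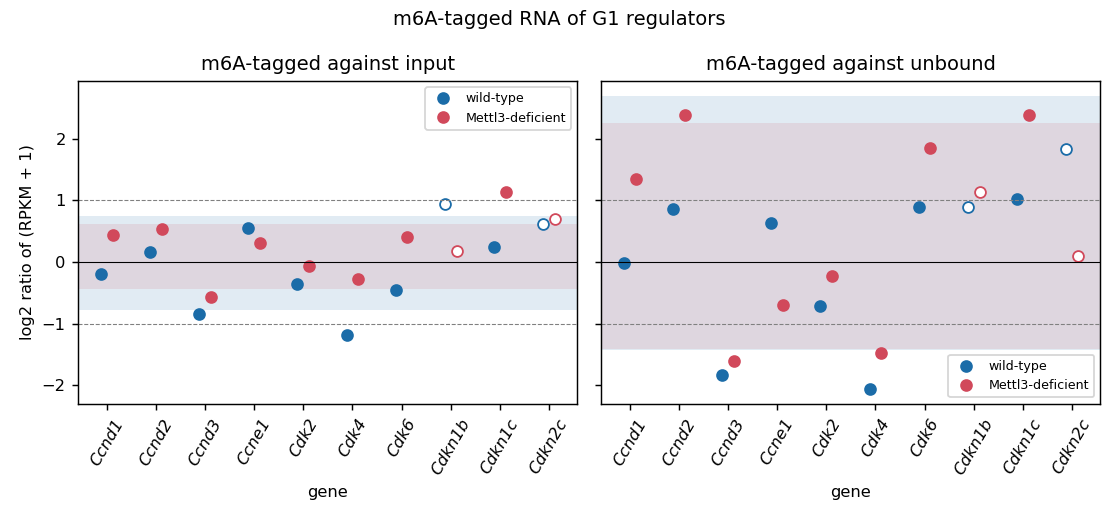
Ratio of m6A-tagged to input RNA (left) and to unbound RNA (right) for each G1 gene, as log2 of (RPKM + 1), in wild-type (blue) and Mettl3-deficient (red) cells, 1 pooled value per point. Open points are genes under the mean of 10 RPKM, shaded bands span the 10th to 90th percentile of all 6295 genes for each genotype, and dashed lines mark 2-fold. Cdk4 and Ccnd3 lie below 0 in all 4 sets of points, and Cdkn1c lies above 0 in all 4.

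The ratio to unbound RNA also went with the genomic span of genes. Over 5 equal groups of genes of growing span, the median was -0.54, 0.03, 0.33, 0.82 and 1.26 in Mettl3-deficient cells and went from -0.15 to 0.39 in wild-type cells. Cdk4 (3.75 kb) and Cdkn1c (2.72 kb) are in the group of shortest span, and Cdk6 (190 kb) and Ccnd3 (94.64 kb) in that of longest span. Cdk4 and Cdk6 thus lay on the side of their span group, and Cdkn1c and Ccnd3 on the opposite side. The part of span in these ratios was not tested.

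Unbound and input RNA were compared to see what the antibody left behind. These ratios share the unbound column with those above and are not separate evidence. In wild-type cells Cdk6, at -1.35, was the 1 member of 8 past 2-fold, against 30.1% of all genes. Ccnd3 was at 0.98, Cdk4 at 0.88 and Cdk2 at 0.36, and Cdkn1c (-0.77), Ccnd2 (-0.70), Ccnd1 (-0.17) and Ccne1 (-0.09) lay below 0. Cdkn2c, under the minimum, was at -1.22, and Cdkn1b, at 0.04, changes sign with the scaling. In Mettl3-deficient cells Cdk4 (1.21), Ccnd3 (1.05) and Ccne1 (1.01) were higher in unbound RNA and Ccnd2 (-1.85), Cdk6 (-1.45) and Cdkn1c (-1.25) lower. These are 6 of 8, against 47.9% of all genes. Ccnd1 was at -0.91, and Cdk2, at 0.18, changes sign with the scaling. Under upper-quartile scaling Cdk4 (0.94), Ccnd3 (0.78) and Ccne1 (0.75) did not reach 2-fold and Ccnd1 (-1.15) did, which leaves 0 of the 8 higher and 4 lower. Cdkn1b (-0.96) and Cdkn2c (0.59) were under the minimum.

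Between genotypes, the input columns asked whether the transcripts themselves differed in abundance. In input RNA 0 of the 8 members were past 2-fold, where 9.05% of all genes were. The farthest was Cdk6 at -0.93 (1.90-fold lower in Mettl3-deficient cells), followed by Cdkn1c at -0.59. Cdk4 (0.25), Ccnd3 (0.18), Cdk2 (0.06), Ccne1 (-0.11), Ccnd2 (-0.13) and Ccnd1 (-0.23) lay closer to 0. Cdkn2c was at -1.25, on 11.2 RPKM for wild-type against 4.15 RPKM for Mettl3-deficient cells, under the minimum, as was Cdkn1b, whose -0.04 changes sign with the scaling. The median of the 8 was -0.12, against -0.05 over all genes. Granulocyte and monocyte markers differed far more in the same columns, 8 of the 9 measured being 2-fold lower, with a median of -2.90, and their part in the ratios of Cdk6, Cdkn1c and Cdkn2c was not tested.

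In unbound RNA Ccnd2 (-1.28), Cdkn1c (-1.06) and Cdk6 (-1.03) were 2-fold lower in Mettl3-deficient cells. These are 3 of 8, where 42.3% of all genes were past 2-fold in either direction and 22.7% were lower. Ccne1 was at 0.99, Cdk4 at 0.58, Ccnd3 at 0.25 and Ccnd1 at -0.97, and Cdk2, at -0.12, changes sign with the scaling. Cdkn1b (-1.04) and Cdkn2c (0.57) were under the minimum. Under median-ratio scaling Ccne1 (1.15) passed 2-fold and Cdkn1c (-0.92) and Cdk6 (-0.90) did not. In m6A-tagged RNA Cdk4 was 2.23-fold higher in Mettl3-deficient cells (1.16, percentile 96.0), the 1 member of 8 past 2-fold, against 13.2% of all genes. Ccnd3 was at 0.47, Ccnd1 at 0.39, Cdk2 at 0.37, Cdkn1c at 0.30 and Ccnd2 at 0.23, with Cdk6 at -0.07 and Ccne1 at -0.35. Cdkn2c was at -1.17 and Cdkn1b at -0.80, both under the minimum. Granulocyte and monocyte markers had medians of -2.63 in unbound and -2.68 in m6A-tagged RNA, and their part here was likewise not tested.

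**Figure D4:**
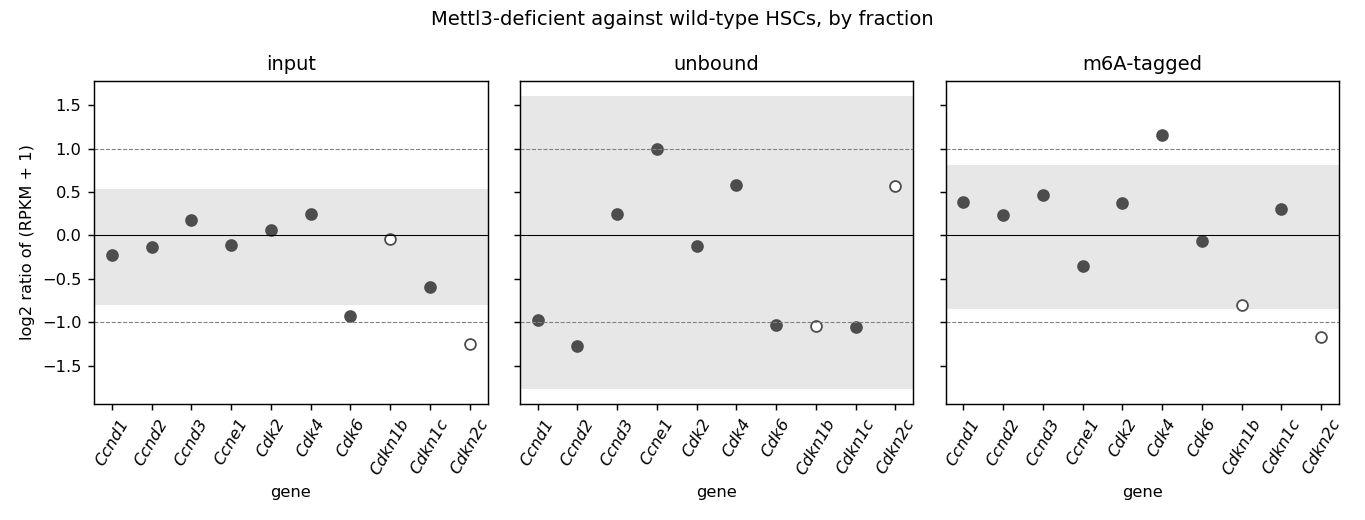
Mettl3-deficient against wild-type level of each G1 gene, as log2 of (RPKM + 1), in input, unbound and m6A-tagged RNA, 1 pooled value per point. Open points are genes under the mean of 10 RPKM, the band spans the 10th to 90th percentile of 6295 genes and dashed lines mark 2-fold. The filled points of input all lie inside 2-fold, Cdk6 being lowest at -0.93, and Cdk4 is highest in m6A-tagged RNA at 1.16.

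The study asked which transcripts carry m6A that depends on Mettl3. Here the genotypes' ratios were subtracted, the Mettl3-deficient minus the wild-type one. Each column is scaled to its own total, so a loss of m6A shared by all transcripts would not show in these differences. Their medians over all genes were 0.04 against input and -0.01 against unbound RNA. The differences rank genes relative to others and cannot show whether a transcript lost or kept m6A. For m6A-tagged against input RNA, 0 of 8 members differed 2-fold, where 10.2% of all genes did. Cdk4 (0.91), Cdkn1c (0.89) and Cdk6 (0.86) were highest and Ccne1 (-0.24) lowest. Ccnd1 (0.63), Ccnd2 (0.37), Cdk2 (0.30) and Ccnd3 (0.29) lay between. Of the 8, 7 lay above 0, as 52.4% of all genes did, so a lower ratio in Mettl3-deficient cells was seen for Ccne1 alone among these 8. Cdkn1b, under the minimum, was at -0.76, with a ratio of 0.94 for wild-type and 0.18 for Mettl3-deficient cells, and Cdkn2c, at 0.08, changes sign with the scaling. For m6A-tagged against unbound RNA, Ccnd2 (1.52), Cdkn1c (1.37) and Ccnd1 (1.36) were higher and Ccne1 (-1.34) lower, 4 of 8 against 46.5% of all genes. Cdk6 was at 0.96, Cdk4 at 0.57, Cdk2 at 0.48 and Ccnd3 at 0.22. Of the genes under the minimum, Cdkn2c was at -1.74 and Cdkn1b at 0.24. Between genotypes, Ccnd2, Cdkn1c, Ccnd1 and Ccne1 moved more in unbound RNA (-1.28, -1.06, -0.97 and 0.99) than in m6A-tagged RNA (0.23, 0.30, 0.39 and -0.35). The Cdk6 difference against input likewise lay in input (-0.93) rather than in m6A-tagged RNA (-0.07). That of Cdk4 lay mainly in m6A-tagged RNA (1.16, against 0.25 in input).

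The genes around this set were read from 5 lists. Of 18 genes of the Rb family, E2F factors and DREAM complex, which act directly downstream of the G1 kinases, 8 were measured at a mean of 10 RPKM or more. In input RNA none was higher and 3 were lower by 2-fold in Mettl3-deficient cells (0 and 3 of 8, against 2.38% and 6.67% of all genes), namely E2f6 (-1.45), E2f1 (-1.38) and E2f4 (-1.26). All 8 lay below 0, where 45.8% of all genes lay above it, with a median of -0.59 against -0.05 over all genes. E2f1, an activating E2F, stood at 31.0 RPKM in the wild-type input column and 11.3 RPKM in that of Mettl3-deficient cells, and E2f4, a repressive E2F of resting cells, had 104.7 and 43.1 RPKM. Rb1, the retinoblastoma gene, had 9.56 and 1.72 RPKM and lay under the minimum.

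The other 4 lists are to be read against the same 2.38% higher and 6.67% lower of all genes. Of 18 other cyclins, kinases, activators and inhibitors of G1 and S phase, 11 were measured. In input RNA 0 passed 2-fold upward and 1 downward in Mettl3-deficient cells, the phosphatase gene Cdkn3 (-1.40), and the median was -0.35. Ccne2, the other E-type cyclin, was at -0.64. Of 17 genes for the turnover of cyclins and p27, 11 were measured, with 0 higher and 1 lower, Ubac1 (-1.25), a subunit of the ligase that acts on p27, and a median of -0.04. Of 33 genes of S phase and mitosis, 27 were measured, with 0 higher and 0 lower and a median of -0.15, Kif11, a spindle motor, being lowest at -0.97. Of 29 regulators of HSC quiescence, 12 were measured, with 0 higher and 0 lower and a median of -0.09. The granulocyte and monocyte marker sums given above belong to the same columns, and their part in these ratios was not tested.

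The same lists were set beside the split of the members. In the m6A-tagged against unbound ratio, 6 of the 12 quiescence regulators were 2-fold higher and 2 lower in wild-type cells, against 31.5% and 19.3% of all genes, with Egr1 at 3.59 and Mdm2 at 2.98. In Mettl3-deficient cells 7 were higher and 0 lower, against 33.7% and 16.9%, with Egr1 at 3.50 and Tek, the angiopoietin receptor, at 2.75. Of the Rb, E2F and DREAM genes, Rbl2, which encodes p130, and E2f6 were 2-fold higher in both genotypes (2.28 and 2.24 in wild-type cells, 3.11 and 3.34 in Mettl3-deficient cells). In wild-type cells 3 of these 8 were 2-fold lower, with E2f4 at -1.55 and Lin37 at -1.25. In Mettl3-deficient cells 0 were, Lin37 lying at -0.45 and the E2f4 columns holding 58.1 (unbound) and 70.3 RPKM (m6A-tagged). Those of the 8 past 2-fold thus stood on both sides in wild-type cells and on the higher side alone in the others. Of the 11 other genes of G1 and S phase, 2 were higher and 2 lower in wild-type cells, and 1 and 3 in Mettl3-deficient cells. Of the 11 turnover genes, 1 was higher and 3 lower in wild-type cells, and 4 and 4 in Mettl3-deficient cells. Of the 27 genes of S phase and mitosis, 6 were higher and 4 lower in wild-type cells, and 11 and 4 in Mettl3-deficient cells.

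Genes whose pattern over the 6 columns came closest to a member were found by the root mean square difference of centred log2(RPKM + 1), a description over 6 pooled values. Srm, the spermidine synthase gene, was closest to Cdk4 (0.08), Lypla2 and the ribosomal protein gene Rpl8 to Ccnd3 (0.09 each), Zfp335 to Ccnd2 (0.09) and Zbtb17 to Cdkn1c (0.15). Raver1 was closest to Cdk6 (0.15), Mocs1 to Ccnd1 (0.08), Mrpl40 to Ccne1 (0.06) and Cirh1a to Cdk2 (0.04). Of the low inhibitors, Cdkn1b had Tbce as its closest gene (0.06). Between members, Ccnd2 and Cdkn1c differed by 0.21 and Ccnd3 and Cdk4 by 0.22, whereas the nearest member to Cdkn2c, Cdkn1b, differed by 0.59.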

How the data were processed

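The authors deposited RPKM values per gene in 2 tables, 1 per genotype, each with 1 column per fraction. The build was mm10 and the tools named are Picard and edgeR, without their roles, per the submitters' processing notes. How reads were aligned and counted is not given in the sources used here. RNA was amplified by Smart-seq2 and read as 150-base pairs, and 1.25 µg of antibody was used, per the labels' protocols. The values show that each deposited RPKM is a mean of 3 libraries with 1 read added per gene, from which depths were solved in a procedure tested on simulated data. These depths are not whole numbers and may be scaled library sizes.

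Tables were joined on gene ID, and log2 ratios of (RPKM + 1) were computed with Python 3.11.15, numpy 2.4.6 and pandas 2.3.3 for genes averaging 10 RPKM or more over the 6 columns. With 1 pooled value per group no test across libraries was possible and no p-value is given. All 10 members are named in each main comparison, with at most 4 genes of each other list by size of ratio and the genes closest in pattern. Rb1, Cdkn1a, Cdkn2a, Cdkn2b, Ccna1, Tgfbr1, Foxo1, the Mettl3-deficient values of E2f4 and the single markers are outside this rule and were chosen after their values were seen. The members and lists were chosen with earlier results of these data known. Alternatives changed the added RPKM, the minimum and the scaling. Genes named in the authors' notes below one table, 3 in all, include 0 members. The gene closest in pattern to Cdkn2c is not reported here.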

Additional observations from a re-analysis of the deposited data

How the results depend on the processing

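No paired analysis was possible because each group has 1 pooled column, and leaving out a replicate was not run for the same reason. Of the 110 ratios of single members, 0 changed direction among those past 2-fold. That result was largely fixed in advance and is no check on them. The same RPKM added to 2 columns cannot reverse their ratio. The scaling factors, 0.875 to 1.11, were too close together to reverse a 2-fold difference. Relative to 2-fold, 6 were gained with 0.1 RPKM added and 9 lost with 5 RPKM added. Median-ratio scaling gained 2 and lost 5, and upper-quartile scaling gained 5 and lost 3. Near 0, the sign changed with scaling for Ccnd1 in wild-type m6A-tagged against unbound RNA, for Cdk2 in 2 ratios, for Cdkn1b in 2 and for Cdkn2c in 2.

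Counts of members past 2-fold that changed by more than 1.5-fold, or to or from 0, moved as follows. Smaller changes are left out. A minimum of 50 RPKM, which leaves 4 members, gave 0 in Mettl3-deficient m6A-tagged against input, 3 in Mettl3-deficient m6A-tagged against unbound, 0 in wild-type and 3 in Mettl3-deficient unbound against input, 1 between genotypes in unbound RNA and 1 in the genotype difference of m6A-tagged against unbound. Without a minimum there were 2 in wild-type unbound against input, 1 between genotypes in input and 2 in m6A-tagged RNA. Upper-quartile scaling gave 5 in wild-type m6A-tagged against unbound, and median-ratio scaling 2 in wild-type unbound against input. Between genotypes in unbound RNA, 0.1 RPKM added gave 5 and 5 RPKM added gave 1. Fewer or more genes tested set the counts under other minimums; for the rest the cause was not tested.

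Scaling also moved the share of higher genes among all those past 2-fold, which median-ratio scaling took from 41.4% to 30.5% and from 48.6% to 28.2% for m6A-tagged against input in wild-type and Mettl3-deficient cells, and from 66.7% to 54.6% for Mettl3-deficient m6A-tagged against unbound. Upper-quartile scaling took it from 15.3% to 2.3% for wild-type unbound against input, from 48.6% to 29.8% for Mettl3-deficient m6A-tagged against input, and from 71.5% to 54.8% for the genotype difference of m6A-tagged against input. For Mettl3-deficient unbound against input it gave 814 genes higher and 2198 lower, in place of 1162 and 1854. The median of all genes moved most for Mettl3-deficient m6A-tagged against unbound, from 0.33 to 0.05 under median-ratio scaling, and for Mettl3-deficient unbound against input, from -0.13 to -0.39 under upper-quartile scaling. The spread between libraries behind each value is unknown, which limits precision.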
